A study of Chlamydomonas reinhardtii with 8 samples.

Results

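The messenger RNAs described here encode proteins of the cytosolic ribosome of the unicellular green alga Chlamydomonas reinhardtii. Members were the genes whose symbol in the deposited table starts with RPL or RPS followed by a digit, without the RPS27e copies, which gave 48 of 17737 genes. Of these, 28 encode proteins of the large (60S) subunit and 20 of the small (40S) subunit, going by their symbols. Whether RPL7ae, counted among the 28, is a ribosomal protein or another protein of the L7Ae family is not settled by the table. All 48 passed the filter on low values (a mean of at least 1 FPKM over the 8 conditions), and all their estimates had the status OK. Ribosomal proteins that carry no such symbol in the table are not included.

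The cells were strain CC-4532, grown with acetate in continuous light. Zinc-deficient cells (0 h) came from a second culture without added zinc. After 2.5 µM zinc chloride had been given they were sampled again at 1.5 and 3 h, at 4.5 h, and at 12 and 24 h. A late and an early zinc-replete culture are the references, each given on its own because their match in age to the deficient culture is not stated, and no mock resupply is among the conditions. Each gene has 1 value per condition in FPKM (fragments per length of transcript and per number of mapped fragments) between confidence bounds. The submitters name 4 biological replicates for every condition, and the table used here gives 1 combined value, so no p-value could be computed and no difference below has a replicate check. ZRT1, a zinc importer induced in deficiency, stood at 313 FPKM at 0 h against 0.325 in late and 0.383 in early replete cells, and the labels of the zinc state hold for it and for its relative ZRT3.

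The cytosolic ribosome makes every protein encoded in the nucleus. Its small subunit reads the messenger RNA and its large subunit joins amino acids, and each ribosomal protein is normally present in a single copy per particle. In growing cells, making ribosomes is among the largest costs of RNA and protein synthesis, and the genes of ribosomal proteins are known to be regulated together. Several of these proteins fold around a zinc ion held by cysteines, so that ribosomes hold a sizeable part of the zinc of a cell. Chlamydomonas has further ribosomes in its chloroplast and mitochondria, whose nuclear genes carry other symbols (PRPL, PRPS, MRPL and MRPS).

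These were among the most abundant messenger RNAs of the alga in every condition. Ranked by mean FPKM, 33 of the 48 genes were among the top 50 of all genes and 47 among the top 100, and the lowest ranked was number 105. RPS21, a small-subunit protein, ranked number 1 with a mean of 17755 FPKM. RPL29 followed with 16948, RPS26, which lies near the exit of the messenger RNA channel, with 11164, and RPL37 with 10354 FPKM. RPL4, whose extension lines the tunnel through which the new protein leaves, had the lowest mean at 1740 FPKM. RPL21 had 2657, RPL14 had 3024 and RPL15 had 3027 FPKM. The highest member therefore exceeded the lowest by 7.77 to 16.6 times, depending on the condition, although their proteins are needed in equal numbers.

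The order of levels was nearly the same in all conditions. Spearman's rho between the levels of the 48 genes in any pair of conditions ran from 0.899 to 0.991 over 28 pairs, where the points share gene length and library preparation. Genes with a shorter span in the table had higher levels (rho -0.51, 48 genes). The span runs from the start to the end of the gene on the chromosome and is not the transcript length to which FPKM is scaled. How much of this relation comes from the estimate for short transcripts was not tested. The large-subunit genes summed to 1.22 to 1.26 times the small-subunit genes in all 8 conditions.

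Together the 48 genes made up 40.3% of all listed FPKM at 0 h, 39.8% at 1.5 h, 37.7% at 3 h, 35.0% at 4.5 h, 33.3% at 12 h and 34.3% at 24 h after zinc. In replete cells they made up 34.4% in the late and 38.3% in the early culture. The share was thus highest in deficient cells and lowest at 12 h. A share does not depend on how the libraries are scaled to each other. The summed FPKM took another course, from 290655 at 0 h to a peak of 333176 at 3 h, a low of 249174 at 12 h and 274963 at 24 h, while late replete cells had 250751 and early replete cells 339166. Total FPKM over all genes differed as well, at 882793 at 3 h against 720944 at 0 h. In 9 other genes, 18 values were failed estimates listed at 0. There were 3 at 0 h, 2 at 1.5 h, 0 at 3 h, 0 at 4.5 h and 4 at 12 h. At 24 h and in late and early replete cells there were 3 each. Where values failed, the totals are too low and the shares too high by an unknown amount. The part of these uneven failures in the course of the totals, the shares and the equal-total scaling was not tested. FPKM is relative to the number of mapped fragments, so a change in these messenger RNAs per cell cannot be told apart from a change in all the others. It is also per length of transcript, so a share of listed FPKM is not a share of the sequenced RNA.

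**Figure D1:**
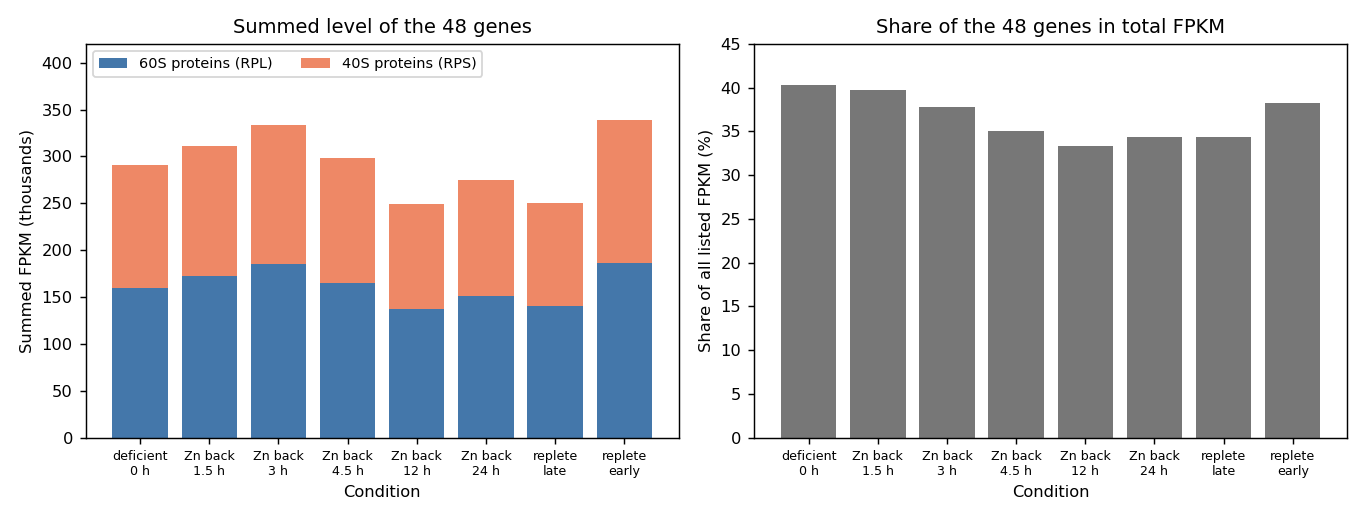
Summed FPKM of the 48 genes (left, large-subunit genes below and small-subunit genes on top) and their share of all listed FPKM in percent (right), 1 bar per condition. The deposited sum peaks at 3 h within the time course while the share is 33.3% at 12 h against 40.3% at 0 h.

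The deposited bounds set what could be seen. For these genes the bounds lay 20.1% to 28.1% (medians per condition) to either side of the value at 0 to 24 h and in late replete cells, and 42.1% in early replete cells, where the widest reached 71.7%. Over all genes with a mean of at least 1 FPKM that median was 31.0% in late and 22.5% in early replete cells. The early culture therefore had the least certain values of these genes. Over all genes the median was 19.7% at 0 h, 17.1% at 1.5 h, 18.5% at 3 h, 19.9% at 4.5 h, 16.3% at 12 h and 17.4% at 24 h. In every condition except late replete cells the bounds of the 48 genes were thus wider than those of all genes. Counts of called members and shares of all genes called, given below, are therefore not on equal terms. A gene is called higher or lower below where its log2 ratio, with 1 FPKM added to both values, is at least 1 in size (2-fold) and the bounds of both conditions do not overlap. A second rule uses 1.5-fold with the same demand on the bounds. At the median width, bounds separate at about 1.61-fold for a gene higher at 1.5 h than at 0 h, and at 2.23-fold for a gene lower at 0 h than in early replete cells. Smaller differences were not detectable with these bounds and are given as values.

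The whole group stayed within a narrow band. The ratio of the highest to the lowest of the 8 values was under 2 in 47 of 48 genes (median 1.49), and in 54.5% of 11432 genes that passed the filter with valid estimates throughout. Among the 245 other such genes ranked within the top 300 by mean level, 31.4% stayed under 2 and the median ratio was 3.04. RPS23, at the decoding centre, varied least (1.33 times), followed by RPS15 (1.36), RPL35 at the tunnel exit (1.37) and RPS9 (1.38). RPL7ae varied most (3.02 times), followed by RPL38 (2.00, just under the limit), RPS21 (1.83) and RPL10 (1.82).

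In the deposited FPKM the highest of the 8 values fell at 3 h in 26 genes, in early replete cells in 15, at 1.5 h in 4, at 0 h in 2 (RPL3 and RPS15) and at 4.5 h in 1 (RPL24). The time of the highest value depends on scaling: it was 3 h in 20 genes with median-of-ratios factors and in 3 genes at equal total FPKM, where it was 1.5 h in 20 and 0 h in 14. In the deposited FPKM the lowest fell at 12 h in 27 genes, in late replete cells in 18, at 0 h in 2 (RPL36a and RPL37) and at 1.5 h in 1 (RPL37a). RPS6, the protein that S6 kinase phosphorylates in animals, yeast and plants, was highest at 3 h and lowest at 12 h. It stood at 3540 FPKM at 0 h, 4232 at 1.5 h, 4727 at 3 h, 3840 at 4.5 h, 3301 at 12 h and 3583 at 24 h, against 3366 in late and 3614 in early replete cells.

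**Figure D2:**
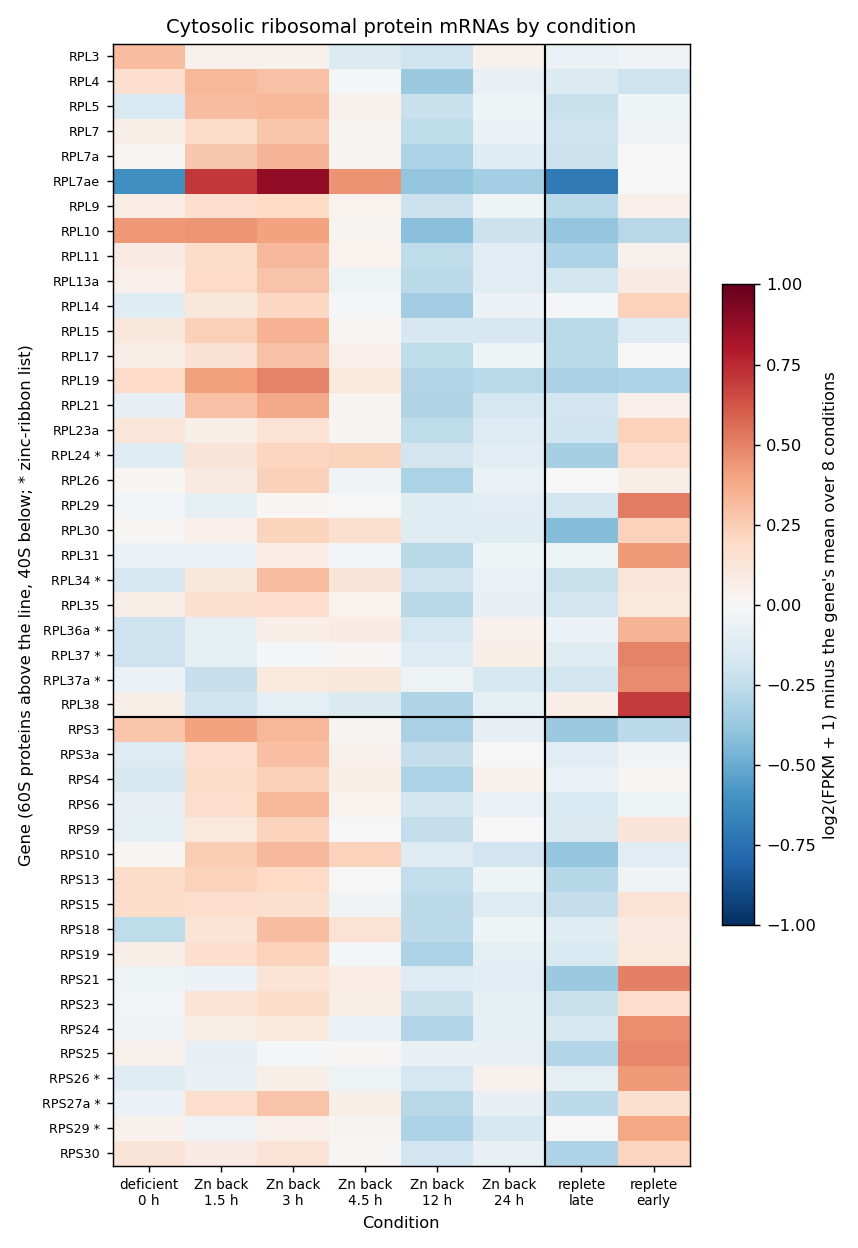
Each row is 1 of 45 of the 48 genes and each column 1 condition. Colour gives log2(FPKM + 1) minus the mean of that gene over the 8 conditions, red above and blue below. In the deposited scaling, which is plotted, many rows are highest at 3 h and lowest at 12 h, others are highest in early replete cells, and RPL7ae shows the strongest colours.

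In zinc deficiency none of the 48 genes passed the 2-fold rule against the late replete culture, the early one or both, where 15.1% of all tested genes passed against late, 16.4% against early and 11.3% against both. Against the late culture, 39 genes lay higher and 9 lower at 0 h, with a median log2 ratio of 0.21 beside -0.04 for all tested genes. Against the early culture, 15 lay higher and 33 lower, with a median of -0.11 beside -0.09. The sign against the early culture depends on scaling, since it was -0.05 with median-of-ratios factors and 0.19 at equal total FPKM, where the median of all genes was 0.14. Large and small subunits did the same, with medians of 0.22 and 0.20 against late and -0.11 and -0.14 against early replete cells.

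RPL10, which completes the large subunit late in its assembly, lay highest in deficiency among the members against either reference. It stood at 6244 FPKM at 0 h (bounds 4308 to 8179) against 3535 in late replete cells (2809 to 4262) and 3822 in early ones (2236 to 5408). This is 1.77-fold against late, which passed the 1.5-fold rule as the only member (28.8% of all tested genes passed it), and 1.63-fold against early, where the bounds overlapped. RPS3, at the entry of the messenger RNA channel, stood at 4139 FPKM against 2637 and 2841. RPL19, which helps to bridge the subunits, stood at 4059 FPKM against 2843 and 2868. RPL3, near the site of peptide bond formation, stood at 4313 FPKM against 3329 and 3398. These 4 genes lay at the top of the group against both references together, and the bounds of RPS3, RPL19 and RPL3 overlapped with those of replete cells.

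At the other end, RPL37 stood at 8874 FPKM at 0 h (bounds 6466 to 11282) against 9397 in late and 14420 in early replete cells. RPL38 stood at 8146 FPKM against 8176 and 12721, and RPL36a at 8061 FPKM against 8940 and 11774. Against late replete cells the log2 ratios were smaller, at -0.08 for RPL37, -0.01 for RPL38 and -0.15 for RPL36a, the lowest of the 48. RPS18 and RPL14 were next lowest against late replete cells, at 2686 against 2944 FPKM and at 2757 against 2976 FPKM.

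**Figure D3:**
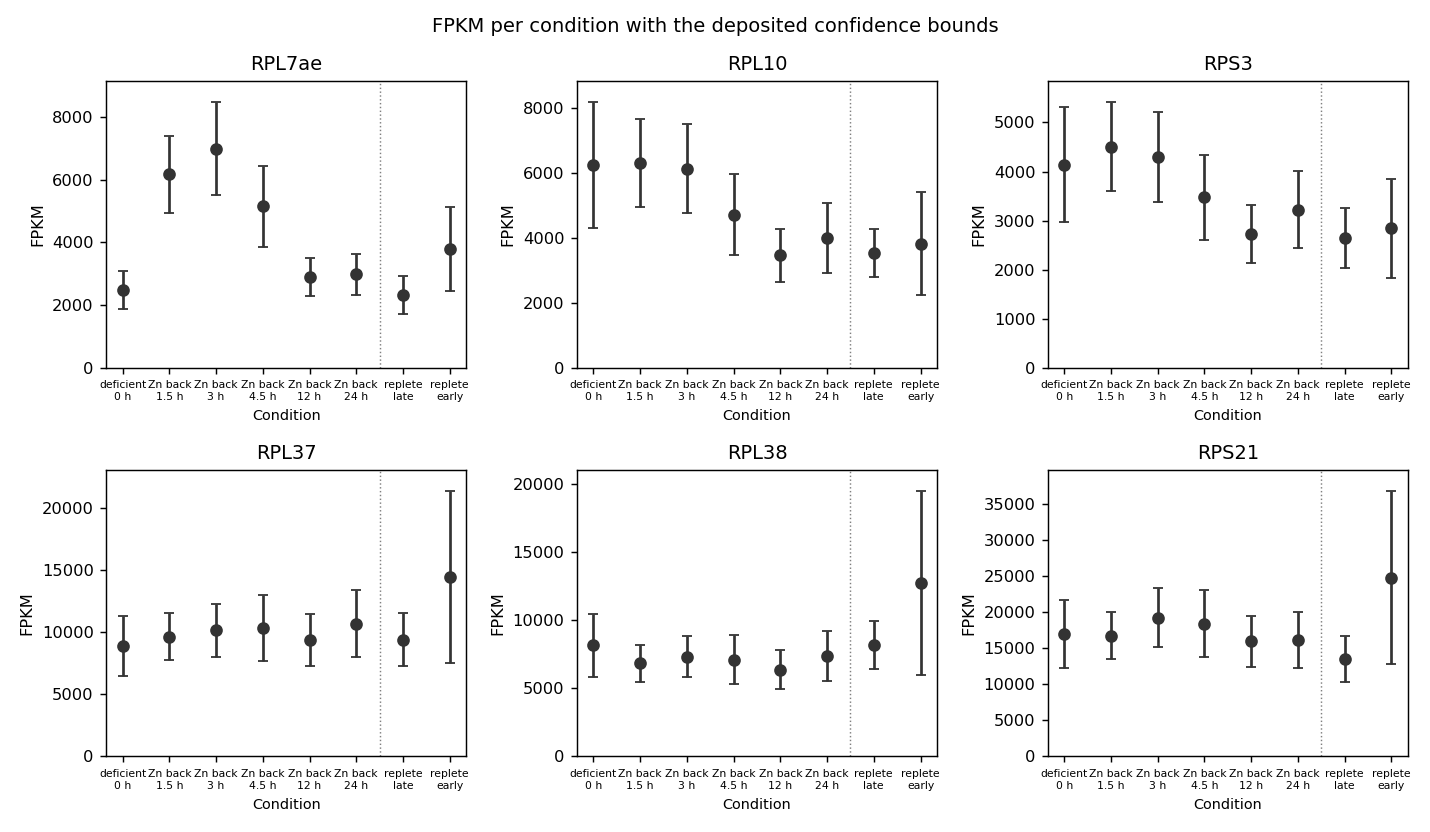
FPKM (vertical axis from 0) of 6 genes in each condition, with the deposited lower and upper confidence bounds as bars. RPL7ae is raised from 1.5 to 4.5 h, RPL10 and RPS3 are high from 0 to 3 h, and RPL37, RPL38 and RPS21 have their highest and least certain value in early replete cells.

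A list of members named after ribosomal proteins known to hold zinc through cysteines lay toward the low end of the group in deficiency, by small amounts. The list holds 8 members (RPL24, RPL34, RPL36a, RPL37, RPL37a, RPS26, RPS27a and RPS29), named after proteins that bind zinc in yeast or animal ribosomes. The 10 symbols searched for included RPL40 and RPL44, which no member carries. The list may be incomplete, and the RPS27e copies were not considered. Zinc binding by the algal proteins was not examined. Their median log2 ratio at 0 h was 0.05 against late replete cells, beside 0.26 for the other 40 members, and -0.44 against early ones, beside -0.06. Ranked from the highest to the lowest ratio among the 48, the 8 genes took ranks from 24 to 48 against late and from 32 to 48 against early replete cells. None was called. The low position against the early culture was also there without deficient cells: late against early replete cells gave a median of -0.46 beside -0.26 for the other 40 with ranks from 27 to 43, and 24 h against early replete cells gave -0.33 beside -0.14 with ranks from 25 to 47.

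RPS26 stood at 10185 FPKM at 0 h against 10327 and 14840 in late and early replete cells. RPS29, which lies close to the messenger RNA in the head of the small subunit, stood at 5958 FPKM against 5791 and 7579. RPL37a, a large-subunit protein distinct from RPL37, stood at 4465 FPKM against 4107 and 6446. RPL34 stood at 2831 FPKM against 2731 and 3473, and RPL24, part of a bridge between the subunits, at 4859 FPKM against 4184 and 5966. RPS27a, made in many eukaryotes as a fusion with ubiquitin, stood at 5765 FPKM against 5032 and 6718. In each of these 6 genes and in RPL36a and RPL37 the bounds at 0 h overlapped with those of both replete cultures.

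Several of the 8 are short genes, and short members were high in early replete cells. The median span was 1844 bp for the 8 genes and 2630 bp for the other 40. For 19 of the others the span was at or under the median of all members (2485 bp), with a median span of 1243 bp. Their median log2 ratio at 0 h was 0.34 against late and -0.09 against early replete cells, beside 0.05 and -0.44 for the 8. These 19 are not matched to the 8 in span. Over the 48 genes, span and the ratio of 0 h to late replete cells gave rho -0.11, and the ratio to early replete cells rho 0.40. Transcript length itself was not examined, and its part in the low ratios was not tested.

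**Figure D4:**
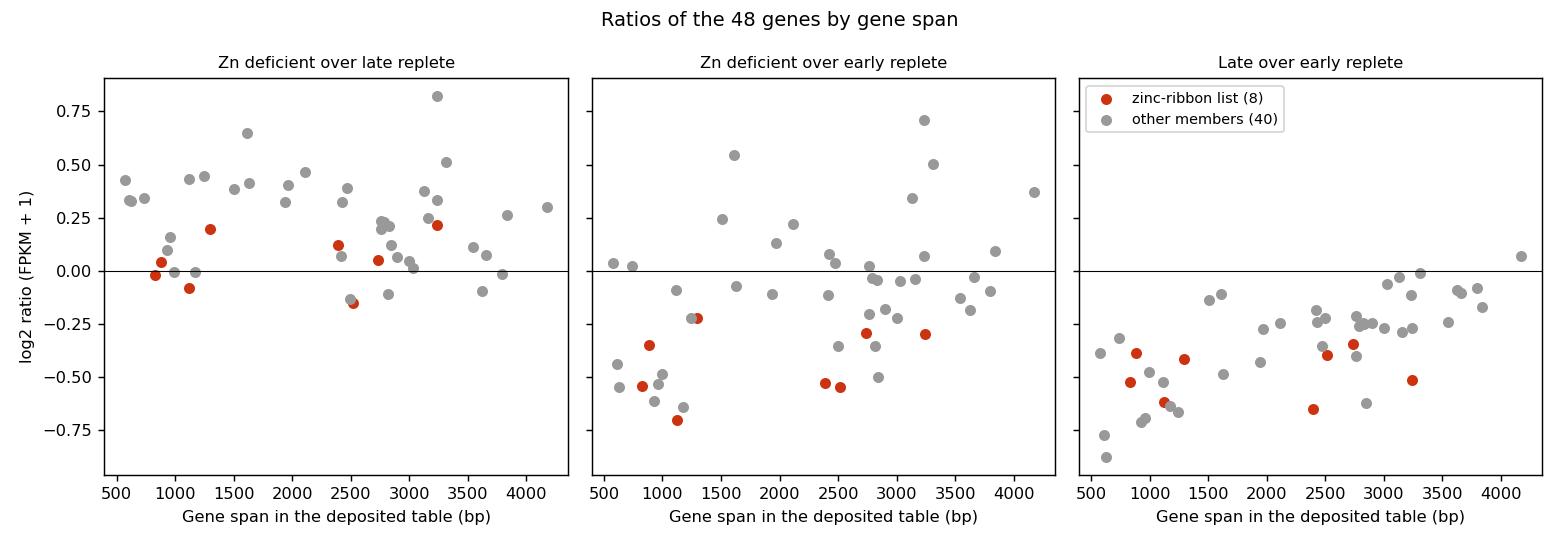
Each point is 1 of the 48 genes, with the gene's span in the deposited table in base pairs on the horizontal axis and its log2 ratio (FPKM + 1) on the vertical axis, for 3 comparisons. Red points are the 8 genes of the zinc-ribbon list. They lie in the lower part of the cloud in both comparisons of deficient with replete cells, and the right panel shows lower ratios of late to early replete cells for short genes.

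At 1.5 h after zinc addition RPL7ae had risen, and no other member was called. RPL7ae stood at 2479 FPKM at 0 h (bounds 1860 to 3098), 6172 at 1.5 h (4953 to 7392), 6989 at 3 h (5504 to 8474), 5159 at 4.5 h (3867 to 6451), 2896 at 12 h (2293 to 3498) and 2989 at 24 h (2335 to 3643), against 2316 in late and 3789 in early replete cells. It rose 2.49-fold at 1.5 h, 2.82-fold at 3 h and 2.08-fold at 4.5 h, each time as the only member called of 48, where 21.2%, 16.2% and 16.7% of all tested genes were called in either direction. The call at 4.5 h lay just past the 2-fold limit and ended with both other scalings. At 12 and 24 h its bounds overlapped again with those at 0 h, and under the 1.5-fold rule it was the only member called at 12 h against 4.5 h, lower at 0.56 of its 4.5 h level (15.8% of all tested genes were called).

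The name RPL7ae points to a family of RNA-binding proteins that holds a large-subunit protein as well as proteins of small nucleolar RNA complexes. Its gene (Cre06.g249250) spans 57989 to 58915 on chromosome 6, in the coordinates of the table, whose build is not stated, and overlaps no other gene of the table. RPL7a, a separate gene of the same family (Cre12.g529650, 5367916 to 5370676 on chromosome 12), was not called at any time. It stood at 3598 FPKM at 0 h, 4289 at 1.5 h, 4500 at 3 h, 3616 at 4.5 h, 2852 at 12 h and 3266 at 24 h, against 3058 in late and 3539 in early replete cells. RPL7, an unrelated large-subunit protein in spite of its name, stood at 6355 FPKM at 0 h, 7396 at 3 h and 5121 at 12 h.

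Of the other 47 members, 35 lay above their 0 h level at 1.5 h and 12 below, none by as much as 1.5-fold. The median log2 ratio of all 48 was 0.12 beside 0.02 for all tested genes, 0.09 with median-of-ratios factors and 0.00 at equal total FPKM. RPL5, which binds the 5S ribosomal RNA with RPL11, had the next highest ratio (5722 FPKM at 1.5 h against 4148 at 0 h), followed by RPS18 (3520 against 2686 FPKM). RPL11 stood at 6769 against 6322 FPKM. RPL3 (3589 against 4313 FPKM), RPL38 (6822 against 8146 FPKM) and RPL37a (3973 against 4465 FPKM) had the lowest ratios. Across the 48 genes, longer spans went with higher ratios at 1.5 h (rho 0.46).

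At 3 h, 43 of 48 genes lay above 0 h in the deposited FPKM, with a median log2 ratio of 0.21 beside 0.11 for all tested genes. At equal total FPKM 17 lay above and 31 below, with a median of -0.08 beside -0.11 for all genes, so the sign of the small change is not fixed by these data. RPS18 (3980 FPKM), RPL5 (5815) and RPL34 (3942) lay highest after RPL7ae, and RPL3 (3587), RPL38 (7331) and RPS25 (7712, against 7975 at 0 h) lowest. From 1.5 to 3 h none was called (5.02% of all tested genes were), and 42 genes lay higher in the deposited FPKM but 5 at equal total FPKM. The highest ratios were those of RPL37a (4999 FPKM at 3 h), RPS21 (19288) and RPL34, and the lowest those of RPS3 (4297 FPKM at 3 h against 4505 at 1.5 h), RPL10 and RPL4.

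At 4.5 h, 43 of 48 genes lay under their 3 h value, with a median log2 ratio of -0.19 beside -0.04 for all genes, and at 12 h all 48 lay under their 4.5 h value, with a median of -0.28 beside -0.08. At 12 h against 4.5 h, 48 genes also lay lower with median-of-ratios factors and 40 at equal total FPKM, and 58.1% of all tested genes lay lower. No member was called at 2-fold in either step, where 0.348% of all tested genes were called at 4.5 h against 3 h and 3.02% at 12 h against 4.5 h. Between 12 and 4.5 h RPL3 (3025 FPKM at 12 h against 3158 at 4.5 h), RPS25 (7359 against 7821 FPKM) and RPS26 (9784 against 10678 FPKM) differed least. RPL7ae, RPL10 (3465 against 4715 FPKM) and RPL24 (4636 against 6166 FPKM) differed most. From 3 to 4.5 h the lowest ratios were those of RPL7ae, RPL19 (3822 FPKM at 4.5 h against 5029 at 3 h) and RPL10, and the highest those of RPL37, RPS25 and RPL36a (9864 against 9776 FPKM).

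Set against 0 h, 4.5 h gave 25 genes higher and 23 lower (median 0.02 beside 0.10 for all genes), and the median was negative with both other scalings. RPS18 (3545 against 2686 FPKM) and RPL24 (6166 against 4859 FPKM) lay highest after RPL7ae, and RPL3 (3158 against 4313 FPKM), RPL10 (4715 against 6244 FPKM) and RPS3 (3472 against 4139 FPKM) lowest. At 12 h, 4 genes lay higher and 44 lower, with a median of -0.22 beside 0.06 for all genes, and the median was -0.28 with either other scaling. None was called at 2-fold (13.6% of all tested genes were), and RPL10 was the only one called at 1.5-fold (30.4%), at 3465 FPKM at 12 h (bounds 2654 to 4277) against 6244 at 0 h. RPS3 stood at 2728 against 4139 FPKM and RPL4 at 1331 against 1931 FPKM. RPL7ae, RPL37 (9367 against 8874 FPKM), RPL36a (8227 against 8061 FPKM) and RPL37a (4497 against 4465 FPKM) were the 4 that lay higher.

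Of 48 genes at 24 h, 45 lay above their 12 h value (median 0.19 beside 0.02 for all genes), led by RPS4 (4805 FPKM at 24 h and 3757 at 12 h), RPL4 (1634 and 1331 FPKM) and RPL14 (2889 and 2360 FPKM), with RPL37a (4155 and 4497 FPKM), RPS10 (2688 and 2806 FPKM) and RPL30 (8254 and 8261 FPKM) below. Against 0 h, 15 lay higher and 33 lower (median -0.11 beside 0.08), RPL10 (3996 against 6244 FPKM), RPL19 (2948 against 4059 FPKM) and RPS3 (3225 against 4139 FPKM) lowest and RPL7ae, RPL37 (10678 against 8874 FPKM) and RPL36a (9611 against 8061 FPKM) highest. No member was called in either comparison, where 0.663% and 15.4% of all tested genes were.

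Against the replete cultures, no member was called at 24 h, where 1.40% of all tested genes were called against late, 0.584% against early and 0.358% against both replete cultures. The median log2 ratio was 0.12 against the late and -0.19 against the early culture in the deposited FPKM, beside 0.03 and 0.01 for all tested genes. At equal total FPKM it was -0.02 and -0.05, beside -0.08 and 0.12 for all tested genes. Whether the 24 h values lay between the replete cultures thus depends on scaling. RPS3 was 3225 FPKM at 24 h against 2637 in late and 2841 in early replete cells. RPS29 (5199 against 5791 and 7579 FPKM) and RPL38 (7347 against 8176 and 12721 FPKM) lay lowest by the mean of both ratios. RPL7ae and RPL30 (8254 against 6625 and 10511 FPKM) lay highest against late, RPS3 and RPL4 (1634 against 1567 and 1492 FPKM) against early replete cells. RPL26 (3942 against 4138 FPKM) was also among the 3 lowest against late, and RPL37a (4155 against 6446 FPKM) and RPL29 (15545 against 23874 FPKM) against early replete cells.

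In the late culture 47 of 48 genes lay below the early one, with a median log2 ratio of -0.28 beside -0.03 for all tested genes, and RPL4 (1567 against 1492 FPKM) was the exception. At equal total FPKM 24 lay lower and 24 higher, with a median of -0.002 beside 0.19 for all tested genes. With median-of-ratios factors 47 lay lower. The 48 genes made up 33.3% to 40.3% of the total that equal-total scaling sets level, so that scaling removes part of a shared change. The largest differences were in RPS21, at 13537 FPKM in late cells (bounds 10334 to 16741) against 24832 in early cells (12791 to 36872), in RPS25 (6325 against 10796 FPKM) and in RPL7ae. RPL29 followed (14783 against 23874 FPKM), and RPL3 and RPL19 differed least beside RPL4. None was called (1.43% of all tested genes were), and the bounds overlapped in each. Short genes lay lower in this ratio than long ones (rho 0.69 between span and log2 ratio over 48 genes). Whether this is a property of the early library was not tested.

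Of the 48 genes, 39 stood in the order 3 h above 0 h above 12 h in the deposited FPKM, 35 with median-of-ratios factors and 16 at equal total FPKM. The values that follow are deposited FPKM. Around the exit of the protein tunnel, RPL17 stood at 7614 FPKM at 0 h, 8938 at 3 h and 6114 at 12 h, RPL23a, the docking site of the signal recognition particle, at 9025, 9148 and 6942 FPKM, and RPL35 at 4903, 5309 and 3879 FPKM. RPL26 and RPL31, also at the exit, stood at 4178, 4851 and 3317 FPKM and at 6462, 7092 and 5545 FPKM. At the decoding centre of the small subunit, RPS23 stood at 3364, 3897 and 2930 FPKM and RPS30 at 11088, 11156 and 8884 FPKM at the same times. RPS9, beside the messenger RNA entry, stood at 8052, 10072 and 7308 FPKM, and RPS15, which breaks this order, at 8923, 8755 and 6537 FPKM.

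Other members stood in the order of the 39. In the large subunit these were RPL9 (7648 FPKM at 0 h, 8359 at 3 h and 6265 at 12 h), RPL13a (6076, 7179 and 4886), RPL15 (3248, 3808 and 2683) and RPL21 (2481, 3414 and 2128). RPL29 (16483, 16991 and 15393 FPKM) had narrower steps, and RPL30 (9024, 10453 and 8261 FPKM) had a narrower step only between 0 and 12 h. In the small subunit the same order held for RPS3a (3101, 4168 and 2877 FPKM), RPS4 (4169, 5506 and 3757), RPS10 (3109, 3853 and 2806) and RPS13 (4704, 4758 and 3505). RPS19 (4724, 5320 and 3633 FPKM) and RPS24 (4939, 5461 and 4148) did likewise, and RPS13 stayed nearly level at 3 h. RPS24 shares its span with 1 other gene of the table, whose mean was 2.28 FPKM.

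Genes that build ribosomes or start translation moved far more than the ribosomal protein genes from 1.5 to 4.5 h after zinc was added. Of 11 ribosome biogenesis genes, all 11 rose at 1.5 h (median log2 ratio 2.13), 10 were higher than 0 h at 3 h, 6 at 4.5 h, 1 at 12 h and 6 at 24 h, and 0 were lower at any time. Of all tested genes, 12.0% were called higher at 1.5 h, 10.4% at 3 h, 10.2% at 4.5 h, 7.25% at 12 h and 8.49% at 24 h, and the 1 of 11 at 12 h is near that share. NOP1, a protein of the nucleolus, stood at 96.0 FPKM at 0 h, 400 at 1.5 h, 338 at 3 h, 279 at 4.5 h, 194 at 12 h and 286 at 24 h, against 169 in late and 281 in early replete cells. NHP2, a small nucleolar RNA protein of the L7Ae family, stood at 92.7 FPKM at 0 h, 409 at 1.5 h, 285 at 3 h, 213 at 4.5 h, 122 at 12 h and 161 at 24 h, against 97.7 and 165 FPKM in replete cells. NOP58 was at 284 FPKM at 1.5 h against 51.2 FPKM at 0 h.

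Of 18 translation initiation factors, 15 rose at 1.5 h (median 1.68) and 0 fell, and EIF2B, EIF4A and EIF6 were not called. Higher than 0 h were 14 of the 18 at 3 h, 13 at 4.5 h, 0 at 12 h and 3 at 24 h, and 0 were lower. Of all tested genes, 10.4%, 10.2%, 7.25% and 8.49% were called higher at these times. EIF4E, which binds the cap of messenger RNA, stood at 323 FPKM at 1.5 h against 90.0 at 0 h, and EIF3B, a subunit of a large initiation complex, at 149 against 33.9 FPKM. In deficiency, 5 of the 18 were lower against early replete cells (EIF3B among them) and 0 against late ones, and EIF6, which keeps the subunits apart until the large one is mature, was higher than in late cells (58.4 against 24.3 FPKM). The biogenesis genes were lower in 6 of 11 against early and in 0 of 11 against late replete cells. Of all tested genes, 8.82% were called lower at 0 h against early and 7.64% against late replete cells, and 7.48% were called higher against late. RPP0, the core of the ribosomal stalk, and RCK1, a scaffold protein on the small subunit, were not called in any of these comparisons. RPP0 stood at 3290 FPKM at 1.5 h against 2452 at 0 h, and RCK1 at 5434 against 4328 FPKM.

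Plastid ribosomal protein genes were called higher at 1.5 h in 32 of 32, with a median of 1.61. Mitochondrial ones were called higher in 1 of 37, with 1 lower and a median of 0.21, beside 1 of 48 and 0.12 for the cytosolic genes. Of all tested genes, 12.0% were called higher and 9.24% lower in this comparison. All comparisons with 0 h share its values. Of 3 genes matched as elongation or release factors, 1 was higher at 1.5 h, the release factor ERF1 (204 FPKM at 1.5 h against 74.8 at 0 h). Another, EFT2, was called lower under the 1.5-fold rule (4.32 against 7.82 FPKM). Of the TOR pathway list 2 genes were found. FKB12, the protein through which rapamycin acts on TOR, stood at 61.8 FPKM at 1.5 h against 125 at 0 h, and LST8 at 16.6 against 12.5 FPKM. Neither was called at 2-fold at 1.5 h. FKB12 was called lower under the 1.5-fold rule, as were 19.8% of all tested genes.

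**Figure D5:**
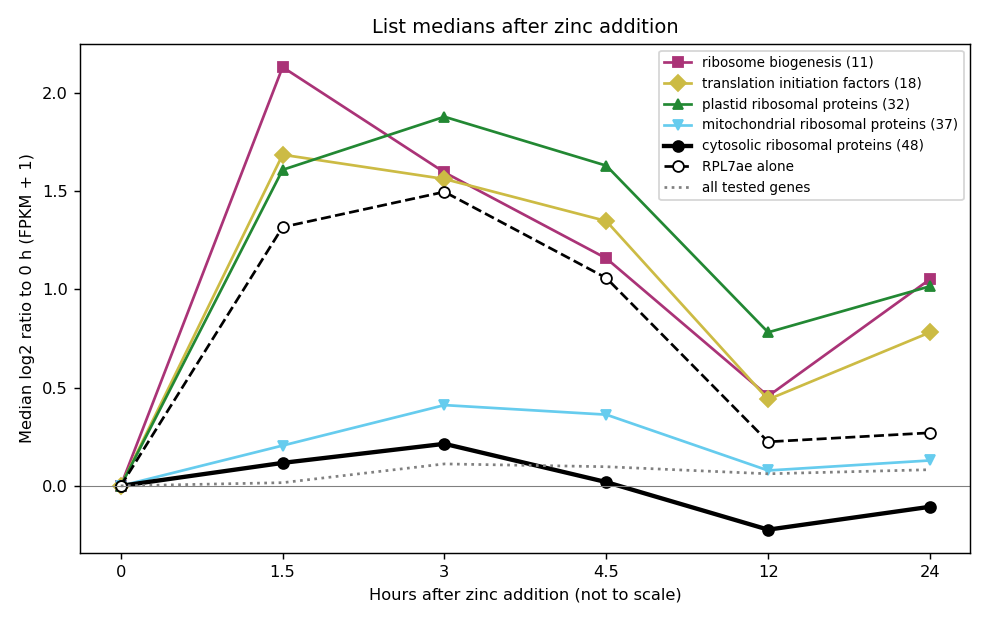
Median log2 ratio (FPKM + 1) to the 0 h value for 5 gene lists, with the number of genes tested in brackets, for RPL7ae alone and for all tested genes, at 0 to 24 h after zinc addition (times evenly spaced, not to scale). The cytosolic ribosomal protein genes stay between -0.22 and 0.21, while ribosome biogenesis genes reach 2.13 at 1.5 h and RPL7ae reaches 1.49 at 3 h.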

How the data were processed

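The members, the gene lists and the call rules were chosen with earlier results of these data known. The authors' deposited table holds FPKM and its confidence bounds per gene and condition. The submitters' processing notes name TopHat2 and Cuffdiff without versions. The genome build, the confidence level, the treatment of reads shared between genes and how 4 replicates became 1 value are not given here. Libraries came from a stranded mRNA kit, per the labels' protocols. Each of the 8 conditions has its own column, found by its name. Whole reads could not be recovered from low FPKM values, so depth is unknown. Depth-based intervals were therefore not computed.

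Log2 ratios were computed over all genes with Python 3.11.15, pandas 2.3.3 and NumPy 2.4.6 after adding 1 FPKM, for genes with a mean of at least 1 FPKM and status OK in the conditions compared. Against both replete cultures a call had to hold against each, and medians used the mean of both ratios. Calling was tried on simulated data, with planted changes well above the 2-fold limit and noise drawn from the deposited bounds. That trial does not bear on smaller changes or on the spread between replicates. Genes were named by rule: called members, the 3 highest and 3 lowest per comparison, extremes of level and range, the zinc-ribbon list and look-alike symbols. Other members were named to describe as many as possible, 3 members are not reported here by name, and the context genes were chosen after their values were seen. Coordinates are those of the table, counted from 1. No sequences are shown.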

Additional observations from a re-analysis of the deposited data

How the results depend on the processing

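Pseudocounts of 0.1 and 5 FPKM, no filter on mean FPKM or a minimum of 5, median-of-ratios factors, equal total FPKM and leaving out the 1 member with a shared span were tried on the count of members called and the median log2 ratio in 8 comparisons. A 1.5-fold threshold was tried on the counts, and the scalings and the shared span on the summed level and share of each condition. Of 172 values, 167 stayed the same within the deposited bounds or within 1.5 times the count. Many of these could not move, since pseudocounts and filters hardly touch genes at such levels and scaling leaves a share as it is. Medians over the group were judged by the bound width of a typical single gene, so the 5 changes of sign below also counted as the same. The count at 4.5 h against 0 h was 1 (RPL7ae) and became 0 with median-of-ratios factors and 0 at equal total FPKM, since both lower the ratio of 4.5 h to 0 h. The count at 12 h against 0 h was 0 and became 1 (RPL10, lower) at 1.5-fold. In 5 cases a median changed sign. For deficiency against both replete cultures it was -0.01 and became 0.06 with median-of-ratios factors and 0.15 at equal total FPKM. At 3 h it was 0.21 and became -0.08 at equal total FPKM, and at 4.5 h it was 0.02 and became -0.07 and -0.22. Small shifts of the whole group are thus limited by the scaling, and single genes by the bounds, which at the median width separate at 1.61-fold for a gene higher at 1.5 h than at 0 h and at 2.23-fold for a lower level at 0 h than in early replete cells. Scalings of the order were added after the data had been seen: 39 members stood at 3 h above 0 h above 12 h, and 16 did at equal total FPKM, while 26 were highest at 3 h, and 3 were at equal total FPKM. Leaving out replicates was not possible with 1 value per condition. No paired analysis was possible because the table has 1 value per condition and no replicate numbers.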
